A study of Mus musculus with 28 samples.

Results

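EO771 mouse breast cancer cells kept in direct contact with C2C12 myotubes were compared with EO771 cells grown alone, gene by gene across the genome. EO771 is a wild-type breast cancer line per the labels, and C2C12 is a mouse muscle line whose precursor cells fuse into multinucleated myotubes. The comparison rests on 8 of the 28 libraries of the series, 4 labelled EO771 with C2C12 and 4 labelled EO771 alone. The 4 libraries of EO771 with MLg, cancer cells kept on a lung fibroblast line, served as a second reference. No drug or genetic change separated the groups, all lines were grown in DMEM with fetal bovine serum and antibiotics, and the length of co-culture was not stated. How the cancer cells were separated from the myotubes was not stated either, nor whether replicates were separate cultures. The spread behind each p-value is thus that of the libraries, and part of it may be technical.

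To keep RNA of the myotubes out of the account, only genes whose mean level in C2C12 alone was at most 4 times that in EO771 alone are described. Levels are CPM, counts scaled to the library's total. The rule kept 46968 of 55536 genes in the tables, of which 13819 passed the filter on low counts and were tested, while 1975 other tested genes were left out. The rule used the level in EO771 alone, which the comparison uses too. A gene was called changed when the adjusted p of edgeR's quasi-likelihood test, corrected over all 15794 genes tested, was under 0.05. Changes are on the log2 scale with their standard error (SE), and group levels are means with the standard deviation (SD, n = 4 libraries per group).

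By its title, the study asked how muscle cells slow cancer cell growth, and it points to hypoxia. Cells sense oxygen through prolyl hydroxylases, which mark the alpha subunits of hypoxia-inducible factor (HIF) for degradation while oxygen is plentiful. When oxygen is short, HIF accumulates, pairs with ARNT and binds DNA at a short core motif, and it raises genes of glucose uptake, glycolysis, lactate export and vessel growth. Growth depends on another large programme, the making of ribosomes in the nucleolus, which MYC promotes by binding the E-box motif together with its partner MAX.

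Stretches upstream of the RefSeq start of 6 of the genes described below are shown. They were chosen as genes of the hypoxia, glycolysis, demethylase and ribosome groups or as the largest rise. They were also chosen because these stretches held the motifs searched. Bases are the RefSeq promoter sequences of GRCm38.p6, written 5′ to 3′ on the gene's strand and limited to the run before the RefSeq start that no GENCODE M21 exon covers. Capitals mark the HIF core motif in either of its forms, ACGTG or GCGTG, on either strand, where the opposite strand reads CACGT or CACGC. In Nop2 they mark the E-box CACGTG, whose letters also contain ACGTG. The Slc16a3 stretch lies within the GENCODE M21 span of that gene (chr11:120948480-120960868), which starts before the RefSeq start. The stretches are those of Slc16a3 (chr11:120948817-120949052, + strand), Kdm7a (chr6:39206790-39207023, - strand), Ddit4 (chr10:59951835-59952020, - strand), Pfkp (chr13:6648778-6649021, - strand), Sncb (chr13:54766596-54766845, - strand) and Nop2 (chr6:125131633-125131882, + strand).
Slc16a3: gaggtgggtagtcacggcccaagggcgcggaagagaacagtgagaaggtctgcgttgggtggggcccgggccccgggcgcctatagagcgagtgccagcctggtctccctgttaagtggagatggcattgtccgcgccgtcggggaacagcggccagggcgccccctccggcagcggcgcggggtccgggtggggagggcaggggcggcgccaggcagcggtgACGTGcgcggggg
Kdm7a: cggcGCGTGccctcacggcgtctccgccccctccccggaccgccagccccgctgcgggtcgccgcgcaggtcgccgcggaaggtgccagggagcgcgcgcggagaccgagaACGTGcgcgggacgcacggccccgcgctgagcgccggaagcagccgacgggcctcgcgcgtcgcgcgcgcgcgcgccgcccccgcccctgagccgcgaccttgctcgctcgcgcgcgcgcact
Ddit4: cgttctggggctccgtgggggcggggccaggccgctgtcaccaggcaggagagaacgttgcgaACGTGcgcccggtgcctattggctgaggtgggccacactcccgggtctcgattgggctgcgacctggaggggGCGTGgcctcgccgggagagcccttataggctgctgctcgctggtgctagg
Pfkp: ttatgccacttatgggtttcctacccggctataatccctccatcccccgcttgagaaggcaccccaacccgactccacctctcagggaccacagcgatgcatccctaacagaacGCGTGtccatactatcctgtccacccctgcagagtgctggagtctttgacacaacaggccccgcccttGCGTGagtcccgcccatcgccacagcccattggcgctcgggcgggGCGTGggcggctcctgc
Sncb: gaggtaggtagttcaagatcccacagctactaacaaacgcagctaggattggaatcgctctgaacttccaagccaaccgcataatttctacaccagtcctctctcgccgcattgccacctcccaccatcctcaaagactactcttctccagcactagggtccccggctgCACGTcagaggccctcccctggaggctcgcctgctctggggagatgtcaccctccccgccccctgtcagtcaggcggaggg
Nop2: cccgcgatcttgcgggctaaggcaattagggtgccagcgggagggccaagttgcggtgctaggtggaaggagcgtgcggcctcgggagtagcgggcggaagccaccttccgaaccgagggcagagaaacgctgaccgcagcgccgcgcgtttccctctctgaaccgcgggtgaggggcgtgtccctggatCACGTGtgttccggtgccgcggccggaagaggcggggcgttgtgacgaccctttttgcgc

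Motif counts were taken over the 250 bases before each RefSeq start, for the 9289 of 13819 kept and tested genes whose symbol matched the promoter table. Of the 16 members of the hypoxia response list that rose (below), 12 (75%) held ACGTG and 13 (81.2%) held GCGTG. Among all 21 kept members of that list, risen or not, the shares were 66.7% and 81%. Among all kept genes that rose and had a promoter they were 25.3% and 48%. Over the kept and tested genes with a promoter the shares were 25% and 49.3%, and 18.5% and 30.9% over all 27025 genes with a promoter entry. Among ribosome biogenesis genes that fell (below), 3 of 39 with a promoter (7.69%) held CACGTG, against 9.71% of the kept and tested genes. These shares describe letters in a window. The list was drawn from known HIF targets, and a match is not a binding site.

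The libraries held 34.1 to 39.0 M counts in EO771 alone and 27.6 to 47.4 M in EO771 with C2C12. Myotube RNA was present in the co-cultured libraries: the 29 myotube markers summed to 153 to 580 CPM, against 23.6 to 26.0 CPM in EO771 alone and 1059 to 4510 CPM in the co-cultured C2C12 libraries. This corresponds to 4.76% to 18.0% of their level in co-cultured C2C12. Another set, of 365 genes, stood at 0.941% to 2.36%. These had at least 20 CPM in co-cultured C2C12 and at most 0.1 CPM in EO771 alone, and MLg was not considered in choosing them. In EO771 with MLg the same 365 genes stood at 0.757% to 1.38% and the myotube markers at 0.629% to 0.926%, so the 365 genes are not particular to C2C12. As alternatives, C2C12 counts were subtracted from each co-cultured library at either share, and values are given below where this changed a call. The myotube marker share is too high for some genes. For Id3 it would bring 7.56 CPM, more than the mean of 4.44 CPM measured on myotubes. The 16 fibroblast markers summed to 30505 to 36302 CPM in co-cultured C2C12, but to 270 to 525 CPM in EO771 with C2C12 and 149 to 181 CPM in EO771 alone. In EO771 with C2C12, every count was even in R5-1, R6-1 and R3-1 and only R5-2 was not. Library R3-1 of that group stood apart: it was the outlying library of its group in 5.34% of 9214 genes, against 0.554% to 0.89% for the other 3. Of the epithelial markers, Krt8 stood at 93.3 CPM ± 2.35 (SD, n = 4) and Erbb2 at 37.5 ± 3.92 in EO771 alone, but Epcam only at 0.514 ± 0.128 and Krt18 at 0.358 ± 0.0875, and 5 of the 25 epithelial markers were at 0 in each group. Krt8 and Erbb2 were thus present, and Epcam and Krt18 were near the floor. Of 12 macrophage and endothelial markers the sum was 14.0 to 16.9 CPM alone and 11.5 to 16.0 CPM with C2C12.

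On myotubes, most of the kept genes listed for the hypoxia response and glycolysis rose in EO771 cells, and most of those of ribosome biogenesis fell. In the main fit most integrins, most matrix proteases and their inhibitors also rose, and most DNA replication genes fell. DESeq2 called 7 of the 15 proteases and inhibitors. Of the 55 replication genes 20 fell when all 28 libraries were fitted, and 15 after subtraction at the myotube marker share. Of the 13819 genes, 1920 rose (13.9%) and 2203 fell (15.9%). In 2638 of the 13819 (19.1%) every co-cultured library was above every library alone, and in 1985 (14.4%) every one was below. Rises were larger than falls: 578 genes (4.18%) rose at least 2-fold and 283 (2.05%) fell at least 2-fold, and past 4-fold there were 134 rises (0.97%) and 44 falls (0.318%). The median log2 change was 0.67 among the genes that rose, -0.49 among those that fell and -0.05 over all. Rises made up 46.6% of the calls, 45.1% when only the 8 libraries were fitted and 45.4% with the R number of the titles as a replicate block. They made up 56.6% when all 28 libraries were normalized and fitted together, and 58.8% after subtraction of C2C12 counts at the myotube marker share (1910 rises, 1341 falls). With the partner rule set at 2 times the level in EO771 alone, 1488 rises and 2144 falls remained. With the co-cultured group reduced to R5-2, its only library not all even (an alternative chosen after seeing the data), 487 rises and 276 falls were called among the 15628 kept genes then tested, and 63.8% of them were rises. That reduction also ended the calls of 15 of the 83 called genes among the 90 examined by the naming rule, including Vhl, Hif3a, Vegfa, Myc, Rpa2, Pcna, Incenp, Cdk4, Aen, Mthfd1, Jag1, Tap1, Slc30a1 and Epcam. Their log2 changes kept their direction under it, for example 3.48 for Hif3a, 0.64 for Vegfa, -0.39 for Pcna, -0.50 for Aen and -2.82 for Epcam. The genes left out by the rule moved differently: 1029 of 1975 rose (52.1%) and 53 fell (2.68%), including all 22 tested myotube markers, which rose.

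**Figure D1:**
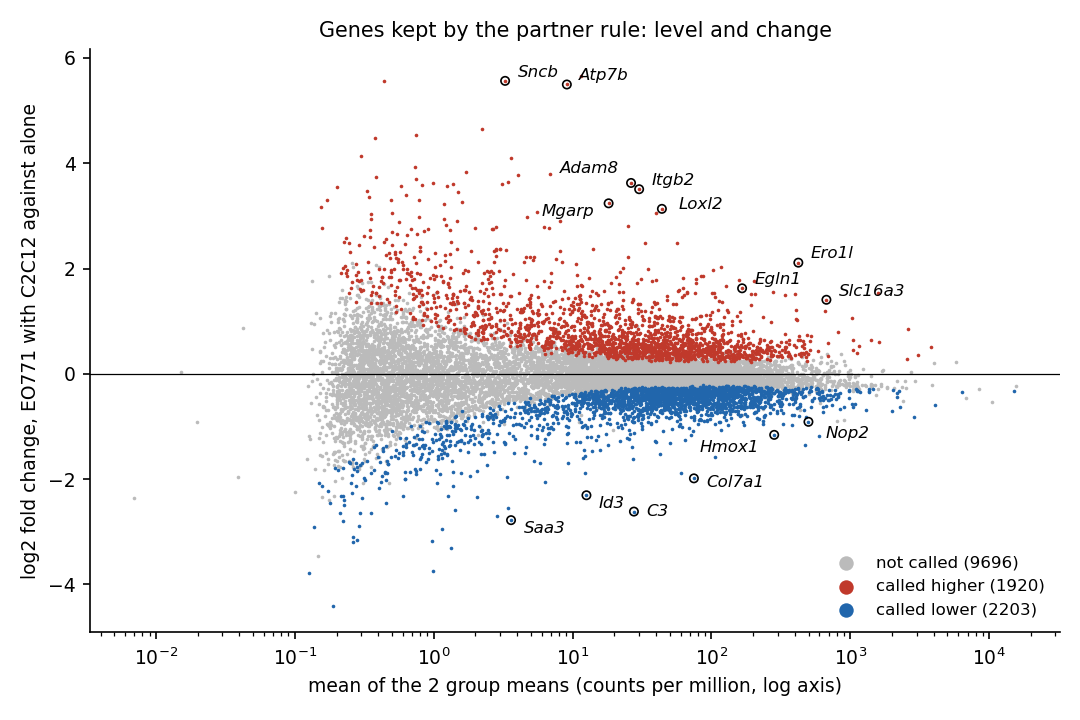
Log2 fold change in EO771 with C2C12 against EO771 alone (vertical axis) by the mean of both group means in CPM (horizontal log axis) for the 13819 kept genes; red points rose, blue points fell, grey points were not called, and circled genes are described in the text. The largest changes among the circled genes are rises, up to 5.56 for Sncb (0.125 CPM alone, 6.42 CPM on myotubes), while the lowest circled gene, Saa3, sits at -2.78.

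The 10 largest rises (called, reaching a mean of 5 CPM, groups not overlapping) included several genes that EO771 alone hardly expressed. Sncb, which encodes beta-synuclein, gave 0, 0.103, 0.228 and 0.168 CPM in the libraries of EO771 alone (here and below in the order R3-1, R3-2, R5-1, R6-2). It gave 4.30, 5.58, 7.05 and 8.74 CPM in those of EO771 with C2C12 (in the order R5-1, R5-2, R6-1, R3-1), and the count of 0 in R3-1 allows up to 0.088 CPM. All 4 co-cultured libraries were above all 4 others, which the rule required, and the log2 change was 5.56 ± 0.56 (SE, adjusted p = 8.25e-07). Atp7b, a copper-exporting ATPase, lies at chr8:21992785-22060305 (GRCm38) and had 0.264, 0.59, 0.457 and 0.168 CPM alone. On myotubes it had 13.6, 19.9, 26.3 and 11.5 CPM, a 45.1-fold rise (log2 5.49 ± 0.33 SE, adjusted p = 1.62e-09). At the myotube marker share, C2C12 RNA would add 0.145 CPM of Atp7b and 0.0147 CPM of Sncb.

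Smtnl2, a smoothelin-like gene, rose from 0.373 ± 0.14 to 6.81 ± 2.62 CPM (SD), and Atp9a, a phospholipid-transporting ATPase, rose 12.2-fold to 5.79 ± 1.86 CPM. Mgarp, which encodes a mitochondrial protein of the hypoxia response, had 3.73, 3.23, 3.25 and 3.09 CPM alone and 25.7, 31.0, 36.1 and 39.4 CPM on myotubes. Both groups were tight for Mgarp, and its log2 change was 3.24 ± 0.18 (SE, adjusted p = 6.87e-10). Loxl2, a lysyl oxidase that cross-links collagen, had 8.30, 8.16, 11.1 and 6.82 CPM alone and 71.3, 79.2, 81.9 and 85.2 CPM on myotubes, with an adjusted p of 6.25e-11. The other members of this group were Adam8, Itgb2, Ly6g and Lrrn3. Lrrn3, which overlaps Immp2l on the opposite strand, was at 6.70 to 8.80 CPM in 3 co-cultured libraries and at 27.0 CPM in R3-1, all above the 0.561 to 1.13 CPM of EO771 alone. Ly6g rose 13.7-fold, to 7.60 ± 2.64 CPM.

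Against EO771 on fibroblasts, all 10 of these genes were also higher on myotubes. The log2 difference between EO771 with C2C12 and EO771 with MLg was 5.32 for Atp7b (adjusted p = 3.49e-09), 5.31 for Sncb, 3.95 for Atp9a, 3.31 for Mgarp and 3.20 for Loxl2 (adjusted p from 4.43e-11 to 1.61e-06 for the last 4). Ly6g differed least, by 0.64 (adjusted p = 0.039), and stood at 4.58 CPM with MLg. Both comparisons use the same 4 libraries of EO771 with C2C12 and come from one fit. The partner rule screened genes against C2C12 only, so RNA of the MLg fibroblasts was not kept out of the levels with MLg. The 16 fibroblast markers summed to 356 to 572 CPM in EO771 with MLg, against 149 to 181 CPM in EO771 alone. Over all kept genes 1749 (12.7%) were higher and 1774 (12.8%) lower on myotubes than on fibroblasts.

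Most genes of the hypoxia response rose. Of 35 listed genes, 21 were kept and tested, and 16 of them rose while 2 fell, with a median log2 change of 1.20 against -0.05 over all kept genes (background 13.9% higher, 15.9% lower). Another 12 listed genes were left out because myotubes express them more, and 10 of those rose. Egln1, the oxygen-sensing prolyl hydroxylase and itself a known HIF target, had 80.9, 78.6, 76.3 and 77.7 CPM alone and 232, 248, 276 and 260 CPM on myotubes. The spread within a group was at most 18.7 CPM (SD) for Egln1, and the log2 change was 1.62 ± 0.10 (SE, adjusted p = 1.62e-09). Ero1l, an endoplasmic reticulum oxidase that forms disulfide bonds, rose 4.32-fold. Its levels were 145 to 159 CPM alone and 547 to 635 CPM in 3 co-cultured libraries, with 1015 CPM in R3-1. Higd1a, a mitochondrial protein induced by hypoxia, had 55.6 to 83.3 CPM alone and 235 to 264 CPM on myotubes.

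Ddit4, an inhibitor of mTORC1 signalling, rose 2.59-fold, with 140 to 156 CPM in 3 co-cultured libraries and 254 CPM in R3-1, against 57.3 to 71.3 CPM alone. Vegfa, the vascular endothelial growth factor, rose from 129 ± 25.9 to 197 ± 25.8 CPM (SD; log2 0.54 ± 0.13 SE, adjusted p = 0.00398). Its call ended after subtraction at the myotube marker share (log2 0.43, adjusted p = 0.0622), and co-cultured C2C12 held 365 CPM of it. Car12, a membrane-bound carbonic anhydrase, had the largest fall of the list, from 55.8, 70.2, 77.5 and 79.0 CPM to 33.2, 34.1, 30.0 and 21.7 CPM. Car12 thus moved against the list, with every co-cultured library below every library alone (log2 -1.32 ± 0.14 SE, adjusted p = 1.31e-06).

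The oxygen-sensing machinery itself changed in few members. Of 16 kept HIF pathway genes 3 rose and none fell, a share of 18.8% against the background of 13.9%, and the median change was 0.00. Hif1a, the HIF alpha subunit regulated mainly through protein stability, had 332 to 360 CPM alone and 335 to 413 CPM on myotubes, overlapping groups (log2 0.01 ± 0.10 SE, adjusted p = 0.934). Its partner Arnt did not pass the test (log2 0.17 ± 0.09 SE, adjusted p = 0.135), although its groups did not overlap and it was called when all 28 libraries were fitted (adjusted p = 0.0401). Vhl, the ubiquitin ligase subunit that recognises hydroxylated HIF, rose 1.49-fold to 29.0 ± 2.77 CPM. Egln1 and Vhl, negative regulators of HIF, were 2 of the 3 rises. Hif3a, a HIF alpha subunit some forms of which restrain the others, was barely detected alone (0 to 0.176 CPM) and stood at 0.967 to 1.22 CPM on myotubes (adjusted p = 0.000412).

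Most glycolysis genes rose. Of 20 kept members 14 rose (70%, background 13.9%) and 1 fell (5%, background 15.9%), with a median log2 change of 0.74. The glucose transporter Slc2a1 rose 2.84-fold to 507 ± 43.1 CPM, and the hexokinase Hk1 rose 2.86-fold to 597 ± 58.3 CPM. The phosphofructokinases Pfkl and Pfkp, which catalyse the committing step, rose. Pfkl went from 230, 246, 231 and 237 CPM to 557, 601, 610 and 530 CPM, and Pfkp from 385 ± 18.3 to 928 ± 58.7 CPM. Slc16a3, the exporter of lactate in glycolytic cells, had 278, 356, 402 and 385 CPM alone and 909, 1063, 1112 and 877 CPM on myotubes (log2 1.41 ± 0.14 SE, adjusted p = 7.40e-07). Gapdh, which had the highest level among the members not called, was 5189 ± 92.4 CPM alone and 6356 ± 405 CPM on myotubes (adjusted p = 0.209), and it was called when only the 8 libraries were fitted (adjusted p = 0.045).

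Of 14 kept genes of the pentose phosphate pathway and of glycogen 5 rose (35.7%, background 13.9%) and 1 fell (7.14%, background 15.9%). All 5 rises were glycogen genes, and the fall was Pgd, of the pentose phosphate branch that yields NADPH (log2 -0.49), named after its value was seen. Gys1, glycogen synthase of muscle and many other cells, had 94.3, 106, 87.7 and 98.0 CPM alone and 266, 282, 304 and 307 CPM on myotubes (log2 1.51 ± 0.09 SE, adjusted p = 1.01e-09). Pgm1, the phosphoglucomutase that supplies its precursor, rose 3.90-fold to 164 ± 11.8 CPM. Gys1 overlaps Ruvbl2, and Pgm1 overlaps Itgb3bp, each on the opposite strand. Whether the counting used strand was not stated, so reads of such partners may be mixed. This holds for 15 of the 90 genes examined by the naming rule.

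Of 35 nuclear genes of oxidative phosphorylation 1 rose (2.86%, background 13.9%) and 2 fell (5.71%, background 15.9%), and 6 fell when only the 8 libraries were fitted. Of 25 genes of the tricarboxylic acid cycle and its entry points 1 rose (4%) and 6 fell (24%). Those falls were 3 without EO771 alone R5-1 or with all 28 libraries, 2 after subtraction at the myotube marker share and 1 with R5-2 alone. The largest fall of the cycle list was Pcx, pyruvate carboxylase, which refills the cycle with oxaloacetate. It went from 86.9, 104, 108 and 87.6 CPM to 45.5, 44.4, 51.1 and 41.2 CPM (log2 -1.16 ± 0.11 SE, adjusted p = 2.98e-07). Cpt1a, which brings fatty acids into mitochondria, fell 1.77-fold to 53.3 ± 2.37 CPM, one of 2 falls among 18 fatty acid oxidation genes (11.1%, below the background of 15.9%).

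Some histone demethylases and TET enzymes, which use oxygen, rose. Of 21 kept members 6 rose (28.6%, background 13.9%) and 2 fell. Kdm7a, a demethylase of repressive histone marks, rose from 30.9 to 41.9 CPM alone to 104 to 184 CPM on myotubes (log2 1.86 ± 0.15 SE, adjusted p = 7.48e-08). Tet2, which oxidises methylated cytosine, rose from 10.1 ± 1.69 to 27.6 ± 1.58 CPM, and Kdm4b from 24.4 ± 1.62 to 53.9 ± 2.45 CPM. Riox1, a nucleolar oxygenase that hydroxylates a ribosomal protein, fell from 27.6 ± 1.66 to 18.1 ± 0.882 CPM.

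The hypoxia and glycolysis genes were also compared with EO771 on fibroblasts. Of the 21 hypoxia genes 18 were higher and 1 lower on myotubes than on fibroblasts, and of the 20 glycolysis genes 15 were higher and none lower. Egln1 was at 81.2 CPM with MLg and differed from its level on myotubes by 1.56 (log2, adjusted p = 3.60e-09), Ero1l was at 154 CPM and differed by 2.08, and Gys1 at 90.6 CPM by 1.59. For Higd1a the difference was 1.58 and for Slc16a3 1.08 (adjusted p = 1.98e-07 and 2.18e-05). Hif1a and Gapdh did not pass this test either (adjusted p = 0.228 and 0.0621).

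**Figure D2:**
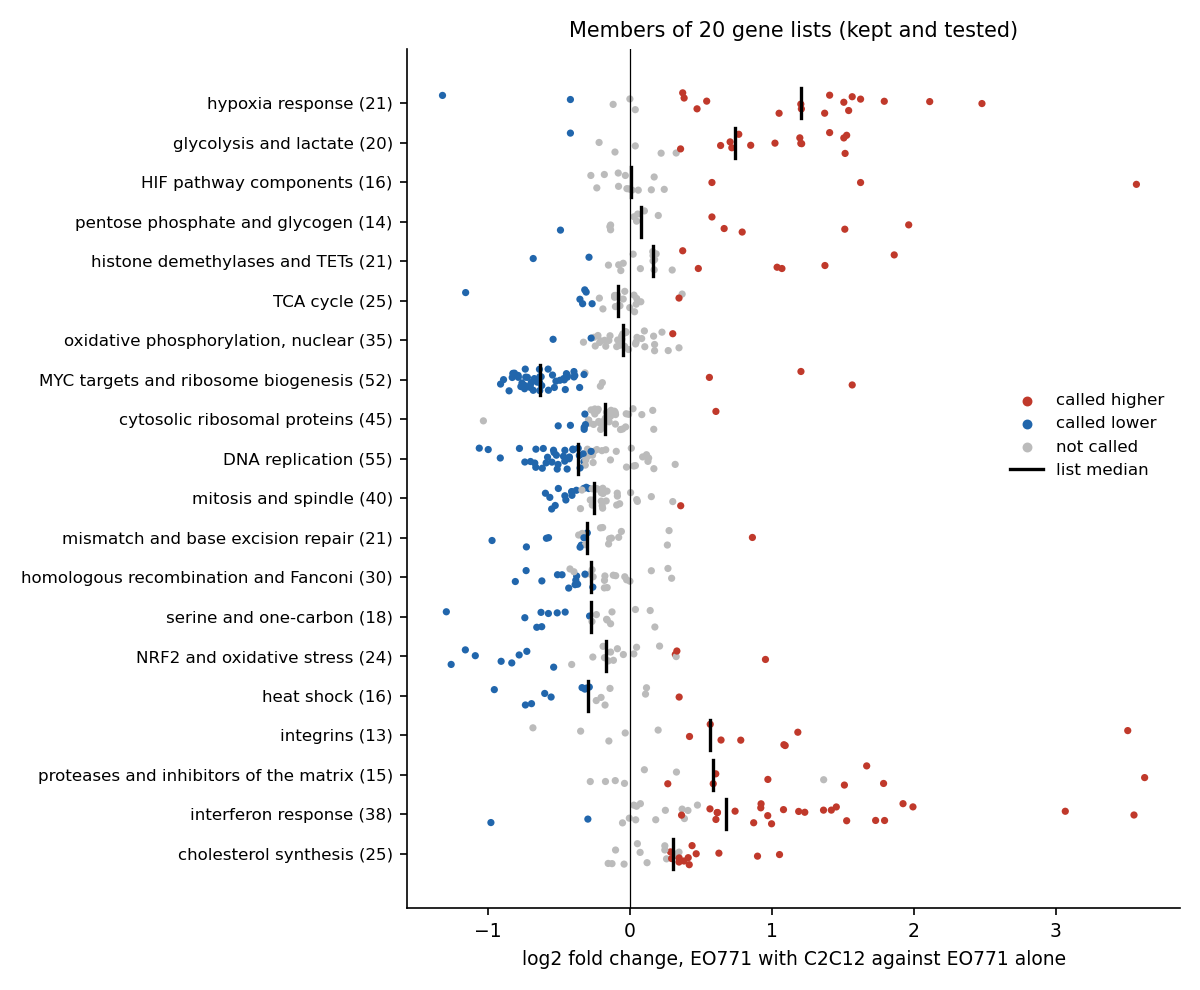
Log2 fold change of each kept and tested member of 20 gene lists, EO771 with C2C12 against EO771 alone, with the number of members in brackets; red points rose, blue points fell, grey points were not called, and black bars are list medians. Hypoxia and glycolysis members lie mostly to the right, with medians of 1.20 and 0.74, and ribosome biogenesis and DNA replication members mostly to the left, with medians of -0.64 and -0.37.

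Of the 53 gene lists, the one on the making of ribosomes held the largest share of falls. Of 52 kept members of the list of MYC, its partners and ribosome biogenesis factors, 46 fell (88.5%, background 15.9%) and 3 rose, with a median log2 change of -0.64. No member fell beyond -0.91. Nop2, which methylates ribosomal RNA in the nucleolus, had 587, 704, 670 and 602 CPM alone and 385, 377, 373 and 299 CPM on myotubes (log2 -0.91 ± 0.11 SE, adjusted p = 4.81e-06). Wdr12, which acts in the maturation of the large subunit, had 121, 117, 120 and 120 CPM alone and 76.7, 68.3, 66.2 and 59.4 CPM on myotubes. Nolc1, a chaperone of small nucleolar ribonucleoproteins, fell 1.78-fold to 356 ± 26.2 CPM. In Nop2, Wdr12 and Nolc1 every co-cultured library was below every library alone, as in 14.4% of all kept genes. R3-1 was the lowest of the co-cultured libraries each time.

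Myc RNA was 638, 790, 732 and 669 CPM alone and 574, 559, 560 and 498 CPM on myotubes (log2 -0.44 ± 0.13 SE, adjusted p = 0.0149). That call ended when all 28 libraries were fitted (log2 -0.39, adjusted p = 0.264) and after subtraction at the myotube marker share (log2 -0.27, adjusted p = 0.185). Odc1, the ornithine decarboxylase of polyamine synthesis and a classic MYC target, was not called (log2 -0.20 ± 0.10 SE, adjusted p = 0.157). The 3 members that rose were Mxi1, Mxd3 and Mlx, named after their values were seen, all factors of the network around MAX. Mxi1, a competitor of MYC for MAX that is also on the hypoxia list, rose from 27.7 ± 2.50 to 86.4 ± 16.7 CPM (log2 1.57 ± 0.14 SE, adjusted p = 1.32e-07). Its level in the 4 co-cultured libraries was 69.1, 78.7, 89.9 and 108 CPM.

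Of 45 kept cytosolic ribosomal proteins 6 fell (13.3%, background 15.9%) and 1 rose (2.22%, background 13.9%), with a median of -0.17. The count of falls was 14 without EO771 alone R3-2, 2 without EO771 alone R3-1 or without EO771 with C2C12 R3-1, 3 without EO771 alone R6-2 and 0 with R5-2 alone. On myotubes against fibroblasts 45 of the 52 members of the biogenesis list were lower and 2 higher, with a median difference of -0.53. Nop2 differed by -0.75 (adjusted p = 6.35e-05), Wdr12 by -0.85 and Nolc1 by -0.67, but Myc did not pass (0.19, adjusted p = 0.292). With R5-2 as the only co-cultured library 19 of the 52 were called lower, and the median was -0.56.

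**Figure D3:**
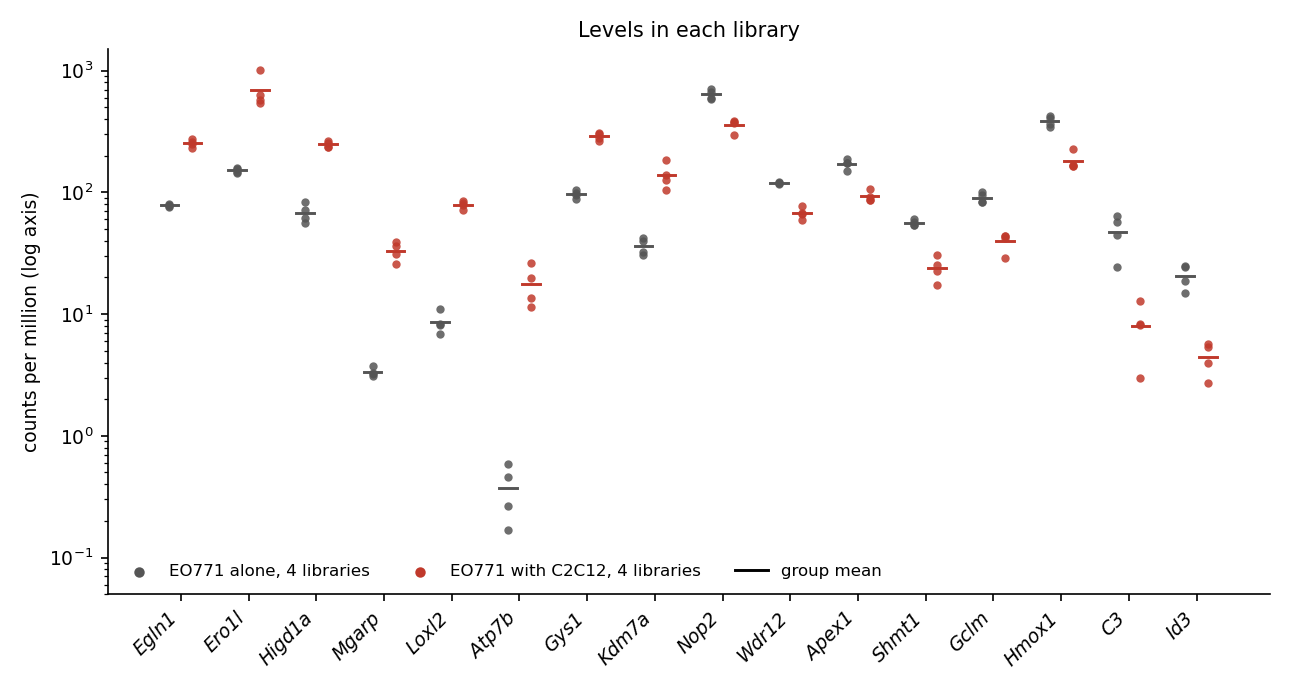
CPM on a log axis of 16 genes in each library of EO771 alone (grey, 4 points) and EO771 with C2C12 (red, 4 points), with bars at the group means. The groups do not overlap for any of these genes, as for 19.1% (higher) and 14.4% (lower) of all kept genes. Atp7b had 11.5 to 26.3 CPM against under 1 CPM alone, and Nop2 fell from 641 to 358 CPM.

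DNA replication genes fell. Of 55 kept members 33 fell (60%) and none rose, with a median log2 change of -0.37. Pcna, the sliding clamp of the replication fork, had 425, 420, 457 and 434 CPM alone and 364, 344, 335 and 276 CPM on myotubes (log2 -0.47 ± 0.11 SE, adjusted p = 0.00224). Rpa2, a subunit of the single-strand binding protein, fell 1.59-fold to 31.6 ± 3.88 CPM. Rrm2, the ribonucleotide reductase subunit with the highest level among the members not called, was 304 to 353 CPM alone. It was 292 to 311 CPM in 3 co-cultured libraries and 217 CPM in R3-1, so the groups overlapped (adjusted p = 0.0506), and DESeq2 called it (adjusted p = 0.0393). The list's count was 20 when all 28 libraries were fitted, 15 after subtraction at the myotube marker share, 7 with R5-2 alone and 29 without R3-1, and Pcna was not called after that subtraction (log2 -0.31, adjusted p = 0.0572).

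In DNA repair, of 30 kept genes of homologous recombination and the Fanconi pathway 12 fell (40%, background 15.9%) and none rose. Of 21 genes of mismatch and base excision repair 8 fell (38.1%) and 1 rose (4.76%, background 13.9%). Apex1, the endonuclease that cuts abasic sites, fell from 150, 190, 176 and 175 CPM to 106, 91.5, 85.9 and 87.0 CPM (log2 -0.97 ± 0.12 SE, adjusted p = 4.72e-06). Exo1, a nuclease of mismatch repair and end resection, fell 1.75-fold to 43.5 ± 9.75 CPM. The counts of falls were 8 and 4 without R3-1, 5 and 5 when all 28 libraries were fitted, 1 and 1 with R5-2 alone, and 3 and 4 after subtraction at the myotube marker share.

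Part of the mitosis genes fell, and the proliferation marker Mki67 was not called. Of 40 kept mitosis and spindle genes 14 fell (35%) and 1 rose. Incenp, a scaffold of the chromosomal passenger complex, went from 313 ± 32.8 to 218 ± 26.4 CPM (log2 -0.60 ± 0.11 SE, adjusted p = 0.00035). Mki67 was 114, 121, 137 and 132 CPM alone and 172, 172, 136 and 108 CPM on myotubes, with overlapping groups (log2 0.15 ± 0.13 SE, adjusted p = 0.4). Among mitosis genes 2 were called lower when all 28 libraries were fitted, 2 after subtraction at the myotube marker share and none with R5-2 alone. By edgeR's quasi-likelihood test against fibroblasts 31 of the 55 replication genes and 11 of the 40 mitosis genes were lower on myotubes, and Mki67 again was not called (adjusted p = 0.772).

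Of 20 kept G1 cyclins, their kinases and kinase inhibitors 4 rose (20%, background 13.9%) and 6 fell (30%, background 15.9%), with a median of -0.13. Of the named inhibitors of the cell cycle, Cdkn1a and Cdkn2d rose. Cdkn1a, the inhibitor p21, had 36.4, 39.7, 32.3 and 30.7 CPM alone and 107, 113, 175 and 135 CPM on myotubes (log2 1.86 ± 0.13 SE, adjusted p = 1.65e-08). Cdkn2d, an inhibitor of the CDKs that pair with D-type cyclins, rose 2.36-fold to 29.8 ± 5.54 CPM. Cdkn1b did not pass (log2 0.24 ± 0.10 SE, adjusted p = 0.0677), although it was higher in all 4 co-cultured libraries, and 5 of the alternatives called it. Among the cyclins and their kinases, Ccnd3 rose 1.76-fold and Cdk4 fell to 295 ± 21.3 CPM (log2 -0.48 ± 0.10 SE, adjusted p = 0.000706). Of 16 kept p53 targets 3 rose (18.8%, background 13.9%), Cdkn1a among them, and 6 fell (37.5%, background 15.9%). Log2 changes on that list ran from -1.88 to 1.86. The falls were 3 with all 28 libraries or after subtraction at the myotube marker share and 2 with R5-2 alone. Aen, an apoptosis-enhancing nuclease on that list, fell from 83.7 ± 4.37 to 56.5 ± 7.32 CPM.

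Of 18 kept genes of serine and one-carbon metabolism, which supplies carbon units for nucleotides, 9 fell (50%, background 15.9%) and none rose. The median log2 change was -0.28, and -0.24 with R5-2 as the only co-cultured library. Shmt1, the cytosolic serine hydroxymethyltransferase, had 56.7, 60.3, 54.1 and 53.9 CPM alone and 30.8, 25.5, 22.7 and 17.4 CPM on myotubes (log2 -1.29 ± 0.13 SE, adjusted p = 9.27e-07). Mthfd1, the cytosolic folate enzyme, fell 1.54-fold to 213 ± 23.1 CPM. Of 24 kept genes of the NRF2 and oxidative stress list 8 fell (33.3%) and 3 rose (12.5%). The falls included both subunits of glutamate-cysteine ligase, the enzyme that limits glutathione synthesis: Gclm fell 2.40-fold to 39.7 ± 7.34 CPM and Gclc 1.88-fold to 122 ± 9.08 CPM.

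Hmox1, the haem oxygenase that NRF2 induces, had 365, 342, 427 and 406 CPM alone and 165, 168, 228 and 165 CPM on myotubes (log2 -1.16 ± 0.14 SE, adjusted p = 4.08e-06). Osgin1, another member, went the other way, from 17.5 ± 0.798 to 35.8 ± 2.85 CPM. Gclc and Gclm were also lower on myotubes than on fibroblasts (log2 -0.38 and -0.66, adjusted p = 0.00748 and 0.000764), but Hmox1 was at 175 CPM with MLg and was not called between the co-cultures (adjusted p = 0.889).

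Chaperone genes fell in part. Of 16 kept heat shock genes 9 fell (56.2%) and 1 rose. Hspe1, the mitochondrial co-chaperonin, had 269 to 334 CPM alone, 175 CPM in 3 co-cultured libraries and 138 CPM in R3-1 (log2 -0.96 ± 0.11 SE, adjusted p = 2.42e-06). Of 25 genes of endoplasmic reticulum chaperones and the unfolded protein response 10 fell (40%, background 15.9%) and 5 rose (20%, background 13.9%), with Ero1l, described above, as the largest rise. The falls of that list were 5 after subtraction at the myotube marker share, and with R5-2 alone none fell and 1 rose. The heat shock count was 5 when all 28 libraries were fitted, 4 after subtraction at the myotube marker share and 3 with R5-2 alone.

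Of 25 kept cholesterol synthesis genes 12 rose (48%) and none fell, with a median of 0.31, but the count moved with the libraries used. Without EO771 with C2C12 R3-1 3 rose and 1 fell. The rises were 5 without EO771 alone R5-1, 7 without EO771 alone R3-1 or R6-2 or EO771 with C2C12 R6-1, and 4 with all 28 libraries. With R5-2 as the only co-cultured library none was called, and the median was 0.15. Lpin1, a phosphatidate phosphatase of triglyceride synthesis, rose as well (adjusted p = 0.000108). It was 17.2 to 28.8 CPM alone, 44.0 to 48.3 CPM in 3 co-cultured libraries and 101 CPM in R3-1. Against fibroblasts none of the 25 cholesterol genes was higher and 1 was lower.

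**Figure D4:**
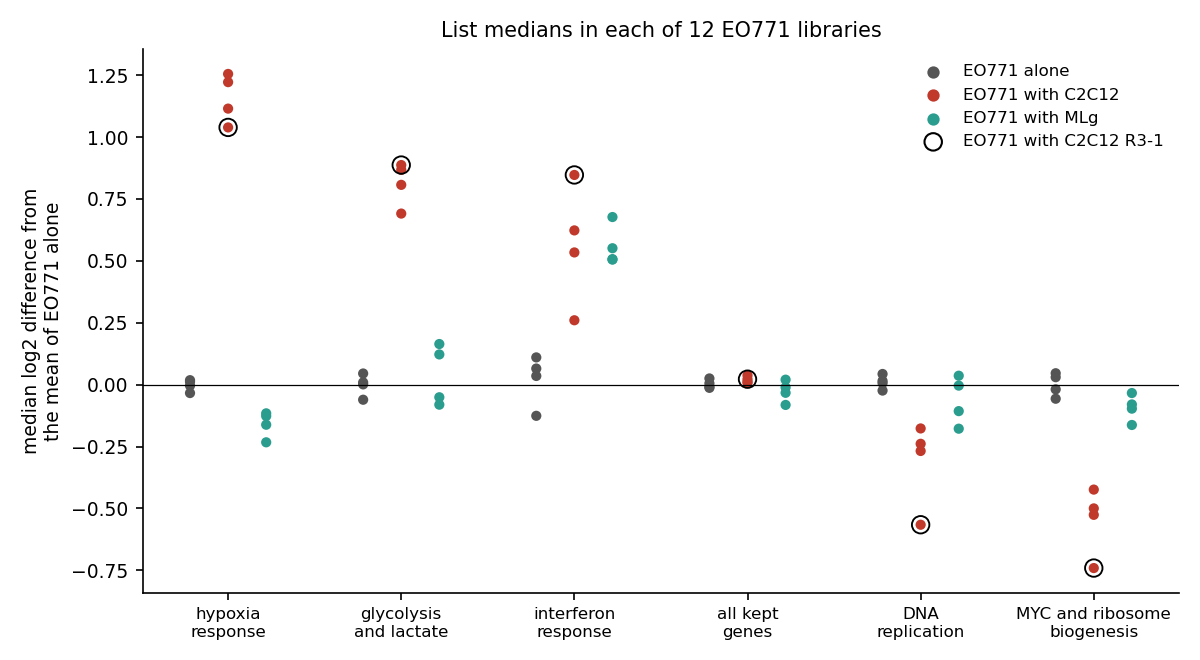
Median over list members of the log2 difference of CPM + 1 from the mean of EO771 alone, for 6 gene sets (horizontal axis) in each library of EO771 alone, EO771 with C2C12 and EO771 with MLg; circles mark R3-1 of EO771 with C2C12. The hypoxia medians on myotubes are 1.04 to 1.26, and R3-1 is the lowest library for DNA replication (-0.57 against -0.27 to -0.18) and ribosome biogenesis (-0.74 against -0.53 to -0.42).

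List medians were also taken in single libraries. For the hypoxia response the medians were 1.22, 1.12, 1.26 and 1.04 in R5-1, R5-2, R6-1 and R3-1, and for glycolysis 0.69, 0.81, 0.87 and 0.89. R3-1 was the lowest for hypoxia and the highest for glycolysis, close to its group in both. For DNA replication they were -0.18, -0.27, -0.24 and -0.57, and for ribosome biogenesis -0.42, -0.50, -0.53 and -0.74. In the 4 libraries of EO771 with MLg the replication medians ran from -0.18 to 0.04 and the hypoxia medians from -0.23 to -0.12. The replication medians of R5-1 on myotubes and of the lowest MLg library, also numbered R5-1, were thus both -0.18. These levels were scaled to library totals only, and over all kept genes the medians of these libraries were 0.04 and -0.08. All hypoxia medians with MLg were below 0.

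The 10 largest falls, by the same rule as the rises, ran from Saa3 to Tacr2. C3, the central complement component, had 57.2, 63.4, 44.3 and 24.3 CPM alone and 12.7, 8.15, 8.29 and 2.97 CPM on myotubes, a 6.13-fold fall (log2 -2.62 ± 0.34 SE, adjusted p = 1.29e-05). Saa3, an acute phase protein, fell 6.87-fold to 0.955 ± 0.23 CPM. Tmem266, a membrane protein gene, fell from 5.83 ± 0.931 to 1.04 ± 0.321 CPM, and Elovl3, a fatty acid elongase that overlaps Pitx3 on the opposite strand, from 10.2 ± 0.395 to 2.59 ± 0.808 CPM. Each of these was lower in all 4 co-cultured libraries, which the rule required.

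Id3, an inhibitor of DNA-binding factors and a target of BMP signalling, had 25.0, 18.8, 14.9 and 24.3 CPM alone and 2.74, 3.98, 5.66 and 5.36 CPM on myotubes (log2 -2.31 ± 0.22 SE, adjusted p = 5.47e-07). Of 18 kept TGF-beta and BMP targets 9 fell (50%) and 3 rose (16.7%). Plk2 went from 93.3 ± 20.4 to 26.7 ± 7.86 CPM and Col7a1, the anchoring fibril collagen, from 118 ± 21.7 to 31.4 ± 3.78 CPM. Lrrc15, a leucine-rich repeat membrane protein, fell 3.68-fold. Rasgrp3, an activator of RAS, and Tacr2, a tachykinin receptor, fell 3.23-fold and 3.22-fold.

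These falls differed in how they stood against fibroblast co-culture. C3 was at 42.1 CPM with MLg and lower on myotubes (log2 difference -2.46, adjusted p = 3.83e-05), and Elovl3, Tacr2 and Plk2 were lower by the same test (-1.57, -1.33 and -1.40). Col7a1 and Lrrc15 were even lower on fibroblasts, at 8.53 and 1.36 CPM, so that their levels on myotubes were higher than with MLg (log2 1.80 and 1.94, adjusted p = 1.26e-06 and 5.24e-06). Id3 and Saa3 were not called between the co-cultures (adjusted p = 0.339 and 0.182). The part of fibroblast RNA in these levels with MLg was not tested.

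Many integrin and matrix protease genes rose. Of 13 kept integrin genes 8 rose (61.5%, background 13.9%) and none fell, with a median of 0.56. Of 15 kept matrix proteases and their inhibitors 8 rose (53.3%) and none fell, with a median of 0.59. With R5-2 alone 5 of each rose. Without EO771 alone R3-1 5 proteases rose, and without EO771 with C2C12 R3-1 6 rose and 1 fell. Over the same groups the 16 fibroblast markers summed to 149 to 181 CPM alone, 270 to 525 CPM with C2C12 and 356 to 572 CPM with MLg, with 2, 0 and 1 of the 16 at 0, and their part in these rises was not tested. Itgb2, the beta subunit of leukocyte integrins, had 5.49, 5.95, 3.80 and 3.34 CPM alone and 46.1, 49.2, 36.9 and 90.7 CPM on myotubes (log2 3.51 ± 0.24 SE, adjusted p = 1.09e-08). Adam8, a membrane metalloprotease, had 3.02, 5.41, 4.51 and 2.08 CPM alone and 38.2, 43.4, 44.3 and 70.1 CPM on myotubes. Both groups were far apart for these genes, and R3-1 was the highest library in each.

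Itga3 and Itga6, alpha subunits of laminin receptors, rose 2.27-fold and 2.12-fold, to 225 ± 47.1 and 327 ± 103 CPM. Plau, the urokinase plasminogen activator, rose 3.18-fold, with 148 to 169 CPM in 3 co-cultured libraries and 297 CPM in R3-1. On fibroblasts the same genes took intermediate values: Itgb2 was at 22.7 CPM with MLg, Adam8 at 17.4 CPM and Plau at 98.2 CPM. The levels on myotubes were higher than these by 1.21, 1.41 and 0.89 (log2, adjusted p = 0.000482, 0.000131 and 0.00219), while Itga3 was not called (0.33, adjusted p = 0.0716). The marker Krt8, a keratin of simple epithelia, rose 2.15-fold to 211 ± 32.6 CPM, and Epcam fell (log2 -2.02 ± 0.50 SE, adjusted p = 0.00456), a call that ended with all 28 libraries (log2 -1.97, adjusted p = 0.0586). Of the 11 kept epithelial markers 4 rose (36.4%) and 3 fell (27.3%), with a median of 0.07.

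Single members of several signalling pathways changed. In the Notch list 3 of 10 rose (30%) and 2 fell (20%), against the background of 13.9% and 15.9%. Dll4, a ligand, was nearly absent alone (0.0561 to 0.308 CPM), was at 1.52 to 2.17 CPM in 3 co-cultured libraries and at 11.4 CPM in R3-1. Notch1, a receptor, rose from 16.3 ± 5.28 to 42.6 ± 3.64 CPM, and Jag1, another ligand, fell from 32.2 ± 4.69 to 22.1 ± 0.992 CPM. Errfi1, a feedback inhibitor of the EGF receptor, rose 2.00-fold and was higher than with MLg (adjusted p = 0.000245). Slc30a1, which exports zinc, fell 2.43-fold to 13.3 ± 3.49 CPM. In its copper and zinc list, which holds Atp7b too, 5 of 22 genes rose (22.7%) and 3 fell (13.6%).

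Interferon-stimulated genes rose on myotubes, and their count moved with the treatment of myotube RNA. Of 38 kept members 24 rose (63.2%) and 2 fell, with a median of 0.68. Subtraction of C2C12 counts left 19 rises at the share of the 365 genes described above, and 9 rises and 5 falls with a median of -0.03 at the myotube marker share. When the partner rule also took the level in co-cultured C2C12, 17 members were kept and 7 of them rose. With R5-2 alone 5 rose. Isg15, a ubiquitin-like protein, had 8.54 to 11.8 CPM alone and 18.9 to 27.4 CPM on myotubes, and co-cultured C2C12 held 86.2 CPM, of which the myotube marker share would bring 8.36 CPM.

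Isg20, an exonuclease with antiviral activity, had 14.1, 12.7, 12.4 and 13.9 CPM alone and 39.0, 43.9, 48.3 and 63.0 CPM on myotubes (log2 1.79 ± 0.13 SE, adjusted p = 2.30e-08), and C2C12 RNA would add 1.76 CPM at the myotube marker share. Against fibroblasts Isg20 was higher on myotubes (log2 1.62, adjusted p = 1.27e-07), whereas Isg15 was not called (0.11, adjusted p = 0.618). Over the interferon list 5 members were higher and 8 lower than with MLg, with a median difference of -0.12, and the list medians were 0.51 to 0.68 in the MLg libraries and 0.26 to 0.85 on myotubes. In class I antigen presentation 6 of 15 kept genes rose (40%) and 3 fell (20%), 3 rose without EO771 with C2C12 R3-1, and none rose with R5-2 alone. Tap1, the peptide transporter, was 5.28 to 10.9 CPM alone, 11.9 to 16.1 CPM in 3 co-cultured libraries and 36.8 CPM in R3-1, and Psmb10, an immunoproteasome subunit, fell from 23.6 ± 2.14 to 11.2 ± 1.64 CPM.

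Cytokine genes moved both ways. Of 19 kept chemokines and cytokines 7 rose (36.8%, background 13.9%) and 6 fell (31.6%, background 15.9%). Csf1, the macrophage colony-stimulating factor, fell from 145 ± 14.2 to 80.3 ± 9.48 CPM although co-cultured C2C12 held 415 CPM, and after subtraction at the myotube marker share its log2 change was larger, -1.75 against -0.92, with an adjusted p of 0.0971. Cd40, a receptor of the TNF family, fell 3.08-fold to 13.9 ± 2.91 CPM, and Traf1, an adaptor of that family, rose 2.68-fold to 16.8 ± 5.47 CPM. Of 24 kept apoptosis genes 6 rose (25%) and 2 fell (8.33%), and Casp6, an executioner caspase, rose from 9.68 ± 0.702 to 33.3 ± 4.17 CPM (log2 1.71 ± 0.13 SE, adjusted p = 4.21e-08).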

How the data were processed

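RNA of 28 libraries was measured by stranded mRNA sequencing (RNeasy, TruSeq, per the labels' protocols). The deposited files hold raw counts per Ensembl gene, 1 table a library, with no normalization. Tools listed in the submitters' processing notes, with no roles, are STAR 2.7.10a, fastp, Subread 2.0.1, featureCounts and DESeq2. No source used here gives genome build, annotation or strand setting. All 55536 identifiers were found in GENCODE M21 (GRCm38), used for symbols and positions (1-based). File names of EO771 with C2C12 R5-1 and R5-2 carry each other's name; the recorded assignment was followed.

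The 12 EO771 libraries were fitted with edgeR 4.0.16 in R 4.3.3 (TMM, filterByExpr with minimum count 10 and minimum total 15, quasi-likelihood F test, 1 mean per group, changes in log2, Benjamini-Hochberg over 15794 genes), after a check on simulated data. Named genes were the 10 largest rises and 10 largest falls (called, at least 5 CPM in the higher group, no overlap), up to 4 called members and 1 uncalled member of each of 53 gene lists, and a fixed panel; 90 of the 244 were examined, 1 of which is not reported here, and Mlx, Mxd3 and Pgd were named after their values were seen. Genes and lists were chosen with earlier results of these data known. Replicates differed by more than sampling noise in every pair (chi-square per degree of freedom at least 13.39). DESeq2 1.42.0, other normalizations and filters, left-out libraries, a replicate block and subtraction of C2C12 counts were tried.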

Additional observations from a re-analysis of the deposited data

Results flagged for a closer look

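In 14 of 180 groups of 4 libraries checked (90 genes, 2 groups), the highest or lowest library lay far from the other 3, its gap to the nearest, over the group's range, exceeding Dixon's 95% critical value. Chance flags about 1 in 20 groups. In 11 of the 14 the library was R3-1 of EO771 with C2C12. It was the highest for Lrrn3 (27.0 CPM, others 6.70 to 8.80), Ddit4 (254 CPM, others 140 to 156), Lpin1 (101 CPM, others 44.0 to 48.3), Plau (297 CPM, others 148 to 169), Itga3 (295 CPM, others 192 to 209), Dll4 (11.4 CPM, others 1.52 to 2.17) and Tap1 (36.8 CPM, others 11.9 to 16.1). It was the lowest for the nucleolar genes Nolc1 (317 CPM, others 366 to 373) and Nop2 (299 CPM, others 373 to 385), for Gclm (28.8 CPM, others 41.9 to 44.1) and for Hspe1 (138 CPM, others at 175). In each of these 11 genes R3-1 lay farther from EO771 alone than the other 3 co-cultured libraries did, and all 11 kept their calls without it.

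The other flags were single libraries. Hmox1 stood at 228 CPM in R6-1 of EO771 with C2C12, against 165 to 168 in the other 3. In EO771 alone, Arnt stood at 77.4 CPM in R3-1 (others 88.0 to 89.8) and Kdm4b at 26.8 CPM in R5-1 (others 23.3 to 23.9).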

How the results depend on the processing

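Of the 90 genes examined, 69 kept their direction and side of the threshold under all alternatives, and DESeq2, upper-quartile normalization, no filter on low counts and halved even counts changed at most 2 genes each. Leaving out 1 library at a time gave 1487 to 1798 rises and 1681 to 1979 falls, 15 to 16 hypoxia rises, 13 to 14 glycolysis rises, 29 to 34 replication falls and 44 to 46 ribosome biogenesis falls. With EO771 with C2C12 reduced to R5-2 (chosen after seeing the data, the lone library assumed to vary like the others) there were 487 rises, 276 falls, 7 replication falls and 19 ribosome biogenesis falls. Subtraction at the myotube marker share gave 1341 falls and 15 replication falls, and the fit of all 28 libraries 20 replication falls. The cause of these shifts was not tested, except that reduction leaves fewer samples. Hif1a, not called, turned to -0.102 with R5-2 alone and ran from -0.037 to 0.049 with 1 library left out, below 0 without EO771 alone R3-1 or R6-2 or EO771 with C2C12 R3-1.

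With the R number as a replicate block there were 2414 rises and 2909 falls, and Rrm2 and Cdkn1b were called (adjusted p = 0.00161 and 0.027). Same-numbered libraries of the 2 groups correlated by 0.024 to 0.081 in their deviations, and differently numbered ones by -0.101 to 0.093. Not every library correlated best with its own number. The titles do not say what the number marks, so it was not taken as pairing. A count of 0 allows 0.077 to 0.088 CPM in EO771 alone and 0.0633 to 0.109 CPM in EO771 with C2C12, for counting error only, which limits genes such as Hif3a and Sncb.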
